A study of Homo sapiens with 18 samples.

Results

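The 10 genes described here are the Notch receptors NOTCH1, NOTCH2 and NOTCH3, the Notch ligands JAG1, JAG2 and DLL4, and the Notch target genes HES1, HES4, HEY1 and HEY2, taken by symbol from the 23106 genes of each count file. RNA-seq of polyA+ RNA was performed in 18 samples, 3 for each of 6 groups, to ask which genes change their expression when cells are moved from normoxia to hypoxia. HKC-8 is a kidney cell line, used by the study as renal tubule cells. RCC4+VHL is a kidney cancer line, RCC4, that lost the tumour suppressor VHL and was stably transfected with the wild-type gene, so both of its groups carry the transgene. HepG2 is a liver cancer line. Each line was compared with its own normoxic samples, which received no hypoxic incubation. By the characteristics labels, HKC-8 and HepG2 were held at 0.5% oxygen for 16 h and RCC4+VHL at 1.0% oxygen for 24 h, whereas the hypoxic HKC-8 titles carry 0.1 in place of 0.5 and the study's text gives 1 exposure for the RNA-seq of all lines. Cell line and labelled exposure therefore cannot be told apart where RCC4+VHL is compared with another line. Each sample is numbered as a replicate, and nothing in the labels says that replicates were separate cultures, so p-values measure the spread between these samples.

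Notch signalling passes between touching cells. A Jagged or Delta-like ligand on one cell binds a Notch receptor on its neighbour, the receptor is cut by an ADAM protease and then by gamma-secretase, and the released intracellular domain enters the nucleus, where it joins the DNA-binding protein RBPJ and a Mastermind co-activator. The HES and HEY genes are the classical targets of this complex and encode basic helix-loop-helix repressors. In the kidney and liver the pathway is known for its role in specifying tubule and bile duct cells.

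Of the 10 genes, 9 were found in the RefSeq promoter table (GRCh38.p14, 250 bases before to 50 after the start site), and HEY1 was not matched. The core letters read by RBPJ, GTGGGAA, were searched on both strands and lie in 6.25% of the 35116 promoters of that length. They were found in the promoters of 3 target genes, HES1, HES4 and HEY2, and in none of the 6 receptor and ligand promoters. These 3 targets were repressed in RCC4+VHL cells, but they are also the only targets that could be searched. HEY1, the target not repressed there, had no promoter to search, and HES1 and HES4 were induced in HepG2 cells. The matches therefore carry no information on the repression. The stretch around 1 match in each is shown, read along the gene's strand, with the matched letters in capitals (for HEY2 they stand in the reverse orientation):
HES1, chr3:194136043-194136089, + strand: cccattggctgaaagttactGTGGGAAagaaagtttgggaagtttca
HES4, chr1:1000148-1000194, - strand: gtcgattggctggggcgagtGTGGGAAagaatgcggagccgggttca
HEY2, chr6:125749399-125749445, + strand: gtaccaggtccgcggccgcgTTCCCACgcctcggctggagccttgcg
The match begins at position -85 from the start site in HES1, at -77 in HES4 and at -213 in HEY2, which holds another at -4. A match describes the letters and does not show that RBPJ was bound.

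The core of the hypoxia response element, read by the hypoxia-inducible factors (HIF), was searched as ACGTG, present in 21.4% of these promoters, and GCGTG, present in 36.5%, again on both strands. Either form was found in 48.4%. ACGTG was found in 1 of the 9 promoters, that of JAG1, at position -116. GCGTG was found in 8 of the 9 and not in NOTCH2, with 1 match in the JAG2 promoter at -236. NOTCH2, which held neither form, was induced in RCC4+VHL and HepG2 cells. NOTCH1, which held GCGTG, was called in no line, and HES1, HES4 and HEY2, which also held it, were repressed in RCC4+VHL cells. A match does not show that HIF was bound, and its part in the response was not tested. HEY2 held 4 GCGTG matches, of which those at -209 and -6 overlap the RBPJ letters at -213 and -4. JAG1 also held 4, and the match at -101 stands in small letters in its stretch below. The JAG1 and JAG2 stretches are shown because JAG1 was the ligand induced in HKC-8 cells and JAG2 gave the larger of the ligand inductions in HepG2 cells, with ACGTG in capitals for JAG1 and GCGTG in its reverse orientation in capitals for JAG2:
JAG1, chr20:10674096-10674130, - strand: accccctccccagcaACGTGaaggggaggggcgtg
JAG2, chr14:105168993-105169026, - strand: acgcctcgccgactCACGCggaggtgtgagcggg

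Total counts ran from 40915980 to 97984260 per sample, with 75441764 to 97984260 in HKC-8 samples and 40915980 to 51794355 in the others, so that a floor of 3 counts stood at 0.0306 to 0.0733 CPM, the count scaled to the size of its library. Markers of each line were checked. All 10 hepatocyte markers exceeded 1 CPM in HepG2 cells, where they summed to 37900 to 39600 CPM in normoxia, against 0.264 to 0.394 in HKC-8 and 10.1 to 10.9 in RCC4+VHL cells. Of 10 kidney tubule markers, 7 exceeded 1 CPM in RCC4+VHL cells and 3 in HKC-8 cells, where PAX8 made up most of a sum of 157 to 200 CPM and PAX2, LRP2 and AQP1 were at or near 0. Of 8 fibroblast and mural markers, RGS5 made up most of a sum of 353 to 370 CPM in RCC4+VHL cells, and DCN was at or near 0 in each line. Of 6 leukocyte markers, LYZ made up most of a sum of 2430 to 2530 CPM in HepG2 cells, where PTPRC and CD3E were at 0. Of 10 known hypoxia-inducible genes, 10 of 10 were induced in HKC-8, 8 of 8 tested in RCC4+VHL and 10 of 10 in HepG2 cells. In RCC4+VHL cells CA9 and EGLN3 stayed near the floor, at means of 0.0886 and 0.102 CPM in hypoxia.

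In normoxia NOTCH2 was the highest receptor and JAG1 the highest ligand in each line, while the levels and the order of receptor and ligand differed between lines. Genes can be compared with each other only per length, so this order uses CPM per kb of exon. In HKC-8 cells NOTCH2 led at 18.1 ± 2.34 CPM per kb (SD, n = 3), followed by JAG1 at 5.98 ± 0.597 and JAG2 at 3.03 ± 1.08. JAG2 overlapped HES1 (2.61 ± 0.226) and HES4 (1.83 ± 0.246) in range, and HES4 overlapped NOTCH1 (1.18 ± 0.417). DLL4 (0.0576 ± 0.0265), HEY1 (0.0398 ± 0.00969) and NOTCH3 (0.0138 ± 0.00372) lay far lower, the ranges of DLL4 and HEY1 overlapping, and HEY2 gave a single count in the 3 normoxic samples.

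In RCC4+VHL cells JAG1 led at 68.1 ± 2.08 CPM per kb, followed by NOTCH2 at 36.3 ± 0.987, HES1 at 20.9 ± 1.36 and HES4 at 6.47 ± 0.638, with no overlap between these neighbours. HEY2 (2.02 ± 0.209), NOTCH1 (1.57 ± 0.0899), HEY1 (1.03 ± 0.0902) and JAG2 (0.332 ± 0.0433) followed, also without overlap, and DLL4 stood at 0.0202 ± 0.00516. NOTCH3 was at 0 counts in all 6 RCC4+VHL samples. In HepG2 cells JAG1 again led at 39.2 ± 6.14 CPM per kb, ahead of HES1 at 8.74 ± 0.863, HES4 at 2.75 ± 0.899, NOTCH2 at 1.87 ± 0.0742 and HEY1 at 1.00 ± 0.353. HES4 and NOTCH2 came apart narrowly, and the ranges of DLL4 (0.153 ± 0.0299) and NOTCH1 (0.151 ± 0.0487) overlapped. NOTCH3 (0.0805 ± 0.00168), JAG2 (0.0694 ± 0.00774) and HEY2 (0.0624 ± 0.00795) were the lowest, with JAG2 overlapping HEY2.

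**Figure D1:**
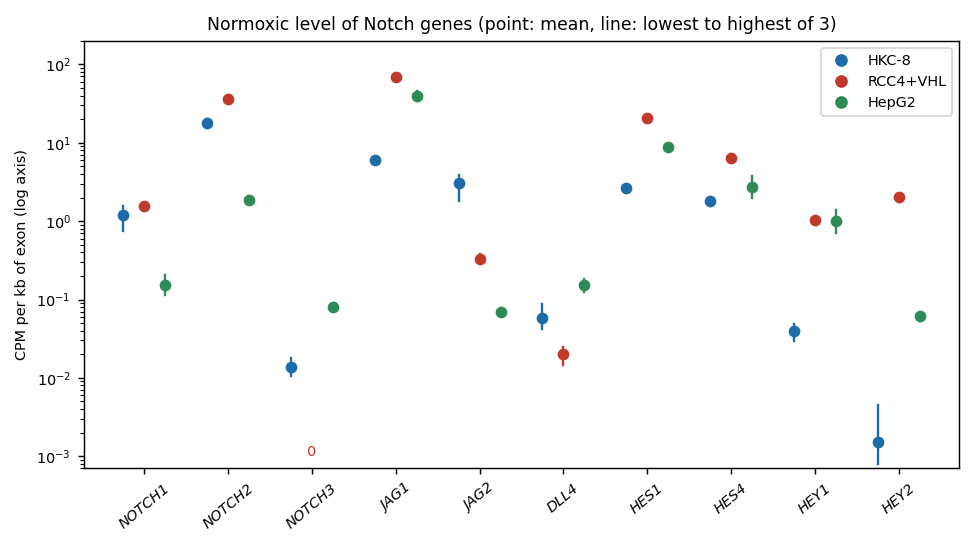
Normoxic level of the 10 Notch genes in CPM per kb of exon, on a log axis, by cell line (colour), with points for the mean of 3 samples and lines from the lowest to the highest sample. JAG1 leads in RCC4+VHL and HepG2 cells and NOTCH2 in HKC-8 cells, NOTCH3 is at 0 in RCC4+VHL cells (written as 0), and the line of HEY2 in HKC-8 cells, whose lowest samples are at 0, is cut at the foot of the axis.

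The same gene was then compared between lines in normoxia, in CPM and with a test on the 9 normoxic samples. Most genes differed between any pair of lines, so the share called is a high background: 80.8% of 14806 genes between RCC4+VHL and HKC-8 cells, 83.0% between HepG2 and HKC-8 cells and 83.3% between RCC4+VHL and HepG2 cells. Of the 10 Notch genes, 9, 10 and 9 passed, which is near that background and says nothing particular about them. The sizes were large. JAG1 stood higher in RCC4+VHL than in HKC-8 cells by 3.52 on the log2 scale (SE 0.11, adjusted p = 3.45e-12) and HES1 by 3.01 (SE 0.11, adjusted p = 9.14e-12), whereas JAG2 fell by 3.17 (SE 0.25, adjusted p = 3.48e-08). Between HepG2 and HKC-8 cells NOTCH2 was lower, with a log2 difference of -3.25 (SE 0.09, adjusted p = 6.48e-13), and so were JAG2 (-5.42, SE 0.31, adjusted p = 9.49e-10) and NOTCH1 (-2.95, SE 0.26, adjusted p = 1.38e-07). HEY1 gave a log2 difference of 0.04 between RCC4+VHL and HepG2 cells (95% interval -0.44 to 0.52, adjusted p = 0.89) and stood about 4.69 and 4.65 log2 units above HKC-8 cells in these lines. HES4 was the least stable of the calls, since the HepG2 against HKC-8 difference of 0.61 (adjusted p = 0.018) gave an adjusted p of 0.24 without normoxic HepG2 replicate 2 and 0.0677 without normoxic HKC-8 replicate 3. The call of DLL4 between RCC4+VHL and HKC-8 cells (-1.45, adjusted p = 0.0127) was also lost without normoxic HKC-8 replicate 2 (adjusted p = 0.0699).

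Against this baseline, hypoxia induced 2 of the 9 Notch genes tested in HKC-8 cells, where 11.2% of 13536 genes were induced and 9.12% repressed, and repressed none. In RCC4+VHL cells 1 of 8 was induced and 3 were repressed, where 25.9% of 12811 genes were induced and 24.2% repressed. In HepG2 cells 6 of 9 were induced and none repressed, where 19.9% of 13623 genes were induced and 19.2% repressed. On leaving out 1 sample at a time, the induced members numbered 0 to 2 in HKC-8 and 3 to 5 in HepG2 cells, with the lowest counts without normoxic HKC-8 replicate 1 and without hypoxic HepG2 replicate 1. The median log2 fold change of the tested members was 0.33, 0.00 and 0.50 in that order, beside a median of 0 over all genes tested in each line. Called means an edgeR adjusted p under 0.05 over all genes. The 7 genes tested in all lines were NOTCH1, NOTCH2, JAG1, JAG2, HES1, HES4 and HEY1. In each line these are bulk measurements, in which fewer cells of a type and less RNA per cell cannot be told apart.

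**Figure D2:**
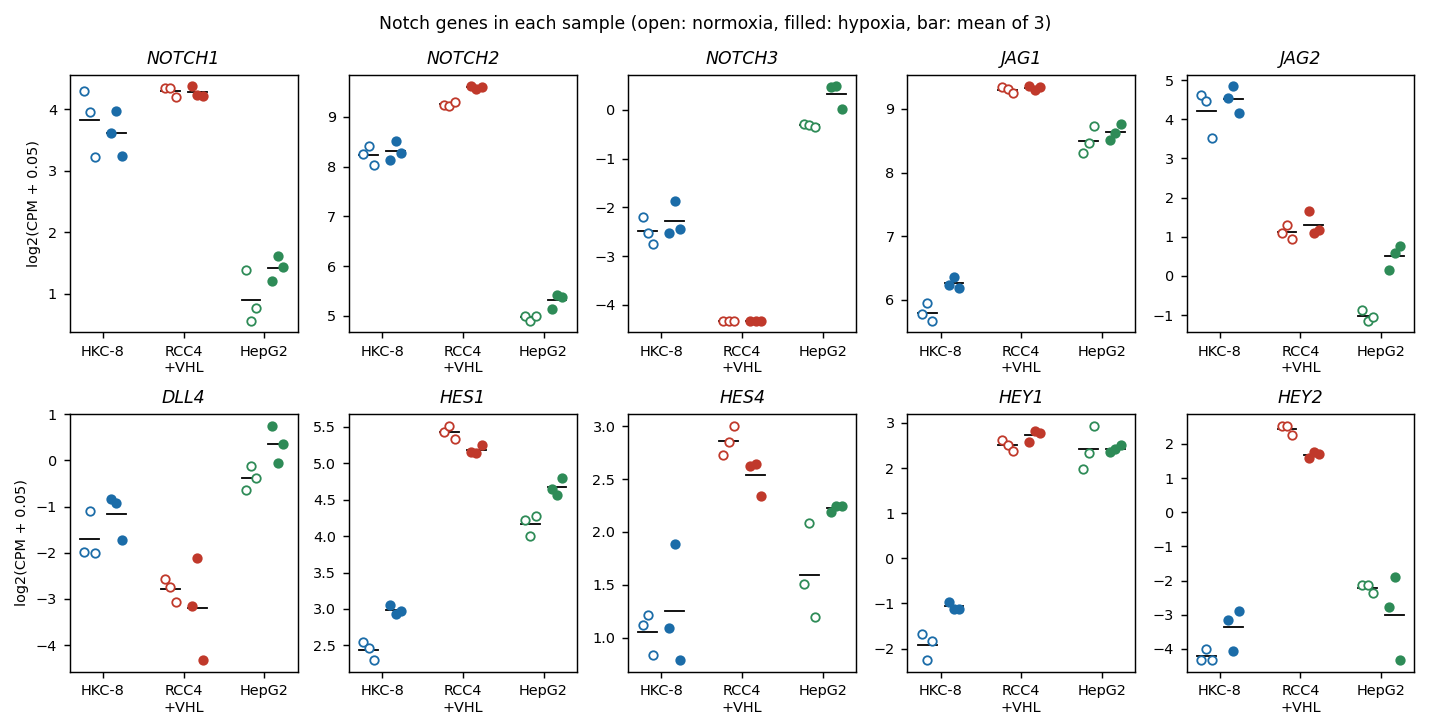
Level of each Notch gene in every sample, as log2(CPM + 0.05), with open circles for normoxia, filled circles for hypoxia, a bar for the mean of 3 and 1 colour per line; the vertical axis differs between panels. HES1 and HES4 lie higher in all hypoxic than in all normoxic HepG2 samples and lower in all hypoxic than in all normoxic RCC4+VHL samples.

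Of the receptors, NOTCH1, a receptor found in many tissues, lies on chromosome 9 (GRCh37, 139388885 to 139440500, reverse strand) and overlaps the microRNA gene MIR4673. HKC-8 cells gave 19.7, 15.4 and 9.3 CPM in normoxia and 12.2, 15.6 and 9.4 CPM in hypoxia. RCC4+VHL cells gave 20.3, 20.4 and 18.4 against 20.7, 18.8 and 18.5 CPM. Those of HepG2 cells were 2.58, 1.43 and 1.65 against 2.26, 3.00 and 2.66 CPM. The groups overlapped in each line, and no change was called. The log2 fold changes were -0.25 (95% interval -0.85 to 0.35, adjusted p = 0.536), -0.02 (-0.16 to 0.12, adjusted p = 0.827) and 0.49 (0.00 to 0.97, adjusted p = 0.105), the last passing at 0.77 (adjusted p = 0.0163) without normoxic HepG2 replicate 1.

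NOTCH2, a receptor with roles in kidney and liver development, lies on chromosome 1 (GRCh37, 120454176 to 120643366, reverse strand). It has near-identical NOTCH2NL copies, and only uniquely mapping fragments entered the counts, so its level is uncertain. It rose in RCC4+VHL cells from 607, 592 and 625 CPM to 783, 757 and 773 CPM, and in HepG2 cells from 32.1, 29.9 and 32.0 to 35.4, 42.9 and 41.4 CPM. All hypoxic samples lay above all normoxic samples in both lines. The log2 fold change was 0.35 in each, with an SE of 0.03 in RCC4+VHL (adjusted p = 4.01e-09) and 0.08 in HepG2 (adjusted p = 0.00375). HKC-8 cells gave 306, 340 and 262 against 282, 365 and 309 CPM, groups that overlapped (log2 fold change 0.08, 95% interval -0.20 to 0.35, adjusted p = 0.704).

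NOTCH3, a receptor best known from vascular smooth muscle, lies on chromosome 19 (GRCh37, 15269849 to 15311806, reverse strand). It was barely detected in HKC-8 cells, at 0.168, 0.123 and 0.099 CPM in normoxia and 0.125, 0.225 and 0.133 CPM in hypoxia (log2 fold change 0.33, 95% interval -0.70 to 1.36, adjusted p = 0.643). In HepG2 cells it rose from 0.771, 0.761 and 0.740 CPM to 1.33, 1.35 and 0.957 CPM, without overlap. This induction of 0.68 on the log2 scale (SE 0.25, adjusted p = 0.0448) rested on 31 to 62 counts per sample. The summed level of 8 fibroblast and mural markers also rose in HepG2 cells, from 68.7 to 75.1 CPM in normoxia to 103 to 105 CPM in hypoxia. PDGFRB made up most of this rise, at 21.7 CPM in normoxia and 58.0 CPM in hypoxia, whereas ACTA2 went from 47.2 to 43.4 CPM. Of 4 tested, 2 were induced, DCN was at 0, and the part of these markers in the result was not tested. The NOTCH3 call in HepG2 cells was lost under DESeq2 (adjusted p = 0.0819), without a filter on low counts (0.0517) and on leaving out any 1 of 5 of the 6 samples.

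Of the ligands, JAG1, the ligand mutated in Alagille syndrome of the bile ducts, lies on chromosome 20 (GRCh37, 10618332 to 10654647, reverse strand). It rose in HKC-8 cells from 54.4, 61.7 and 50.8 CPM to 75.3, 81.4 and 72.8 CPM. No hypoxic sample overlapped a normoxic one, and the log2 fold change was 0.46 (SE 0.09, adjusted p = 0.0102), with an adjusted p of 0.056 without normoxic HKC-8 replicate 1. Its highest level was that of RCC4+VHL cells, at 650, 637 and 612 against 656, 628 and 651 CPM (log2 fold change 0.03, 95% interval -0.03 to 0.10, adjusted p = 0.423). In HepG2 cells it stood at 315, 352 and 427 against 366, 394 and 435 CPM, groups that overlapped (0.13, adjusted p = 0.334). Without normoxic HepG2 replicate 3, the highest of its group, the value was 0.25 (adjusted p = 0.0137).

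JAG2, a second Jagged ligand, lies on chromosome 14 (GRCh37, 105607319 to 105635161, reverse strand) and gave the largest log2 fold change among the members tested within a line. In HepG2 cells it rose from 0.499, 0.403 and 0.430 CPM to 1.07, 1.45 and 1.66 CPM, a 3.12-fold induction without overlap (log2 fold change 1.64, SE 0.28, adjusted p = 0.000475). The counts behind it were 18 to 22 in normoxia and 45 to 67 in hypoxia. It was far more abundant in HKC-8 cells, at 24.6, 22 and 11.5 against 23.4, 28.7 and 17.7 CPM, with overlap between groups (0.27, 95% interval -0.33 to 0.87, adjusted p = 0.507). That value fell to 0.00 without normoxic replicate 3, the lowest of its group. RCC4+VHL cells gave 2.09, 2.42 and 1.87 against 3.11, 2.08 and 2.19 CPM (0.21, 95% interval -0.19 to 0.61, adjusted p = 0.383). Over the 6 group means of centred log2(CPM + 0.1), the genes nearest to JAG2 among 11418 tested in all lines were TRIM46, GLB1L2 and INPP5J, at Euclidean distances of 1.04, 1.08 and 1.14.

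DLL4, a Delta-like ligand best known from the tips of growing vessels, lies on chromosome 15 (GRCh37, 41221538 to 41231271, forward strand) and was the lowest ligand in RCC4+VHL and HKC-8 cells. In HepG2 cells it rose from 0.589, 0.873 and 0.716 CPM to 1.64, 0.912 and 1.24 CPM. The groups did not overlap, though the closest pair stood at 0.873 and 0.912 CPM. The log2 fold change of 0.79 (SE 0.29, adjusted p = 0.0434) was lost under DESeq2 (adjusted p = 0.052) and without any 1 of 4 samples (0.0695 to 0.221). Of 10 endothelial markers, 2 or 3 were at 0 in all samples of a HepG2 group, KDR was at or near 0, and ESAM made up most of a sum that ran from 34.2 to 49.9 CPM in normoxia and 44.6 to 61.4 CPM in hypoxia, and their part in the result was not tested. In HKC-8 cells DLL4 stood at 0.204, 0.419 and 0.198 against 0.514, 0.481 and 0.254 CPM (0.61, 95% interval -0.36 to 1.59, adjusted p = 0.345), and in RCC4+VHL cells it gave 0 to 9 counts per sample and was not tested.

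Of the target genes, 1 of 3 tested was induced in HKC-8 and 2 of 3 in HepG2 cells, whereas 3 of 4 were repressed in RCC4+VHL cells. Over all genes, 11.2% and 19.9% were induced in HKC-8 and HepG2 cells, and 24.2% were repressed in RCC4+VHL cells. Sets of 3 or 4 genes are too small to be read against these shares. HES1, the most widely used Notch target, lies on chromosome 3 (GRCh37, 193853937 to 193856521, forward strand). It rose in HKC-8 cells from 5.79, 5.45 and 4.87 CPM to 8.22, 7.55 and 7.82 CPM, and in HepG2 cells from 18.6, 16.0 and 19.4 CPM to 24.9, 23.7 and 27.7 CPM. In RCC4+VHL cells, where its normoxic level was highest, it fell from 43.0, 45.8 and 40.2 CPM to 35.5, 35.1 and 37.9 CPM. No groups overlapped in any line. The log2 fold changes were 0.55 (SE 0.13, adjusted p = 0.0177), 0.50 (SE 0.09, adjusted p = 0.000739) and -0.24 (SE 0.05, adjusted p = 0.000701). Beside the decrease in RCC4+VHL cells, 5 of 9 tested kidney tubule markers were also repressed and their sum moved from 954 to 991 CPM in normoxia to 814 to 879 CPM in hypoxia, and their part in the result was not tested. The HKC-8 call was lost without normoxic replicate 1, normoxic replicate 2 or hypoxic replicate 1 (adjusted p = 0.0526, 0.0562 and 0.0797), at values of 0.52 to 0.61.

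HES4, a relative of HES1 that is absent from the mouse, lies on chromosome 1 (GRCh37, 934342 to 935552, reverse strand). In HepG2 cells it rose from 2.79, 4.19 and 2.24 CPM to 4.52, 4.69 and 4.68 CPM, and in RCC4+VHL cells it fell from 6.56, 7.15 and 7.98 CPM to 6.12, 6.21 and 5.01 CPM, both without overlap. The log2 fold changes of 0.59 (SE 0.20, adjusted p = 0.0308) and -0.31 (SE 0.12, adjusted p = 0.0275) were both close to the threshold. The HepG2 call was lost on leaving out any 1 of 5 samples (adjusted p of 0.0618 to 0.102) and the RCC4+VHL call on leaving out any 1 of 3 (0.0583 to 0.149). HKC-8 cells gave 2.13, 2.27 and 1.74 against 2.08, 3.65 and 1.68 CPM, and the direction turned to -0.12 without hypoxic replicate 2 (from 0.28, adjusted p = 0.522).

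HEY1, a repressor of the heart and vessels, lies on chromosome 8 (GRCh37, 80674606 to 80680092, reverse strand). Its level in HKC-8 cells was 0.264, 0.160 and 0.231 CPM in normoxia and 0.464, 0.409 and 0.412 CPM in hypoxia, with no overlap and 13 to 40 counts per sample. The log2 fold change of 0.97 (SE 0.34) did not pass, with an adjusted p of 0.0713. With the replicate numbers as a block, it was 0.98 (SE 0.36) and passed at an adjusted p of 0.0482. RCC4+VHL cells gave 6.14, 5.66 and 5.15 against 5.96, 6.99 and 6.81 CPM (0.22, 95% interval -0.01 to 0.46, adjusted p = 0.105). HepG2 cells gave 3.88, 4.97 and 7.64 against 5.05, 5.30 and 5.69 CPM, a spread in normoxia that spanned all hypoxic samples (-0.04, 95% interval -0.46 to 0.39, adjusted p = 0.901).

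HEY2, a close relative of HEY1, lies on chromosome 6 (GRCh37, 126068810 to 126082415, forward strand) opposite the antisense gene HEY2-AS1. The strand setting of the counting is not given in the sources used here, so reads of the pair may not be separated. It fell in RCC4+VHL cells from 5.73, 5.76 and 4.77 CPM to 2.97, 3.34 and 3.19 CPM, a 1.71-fold decrease without overlap (log2 fold change -0.77, SE 0.13, adjusted p = 3.57e-05). It was near the floor elsewhere and not tested. HKC-8 samples gave 0, 1 and 0 counts in normoxia and 5, 1 and 7 in hypoxia, and HepG2 samples gave 8, 8 and 6 against 4, 10 and 0.

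**Figure D3:**
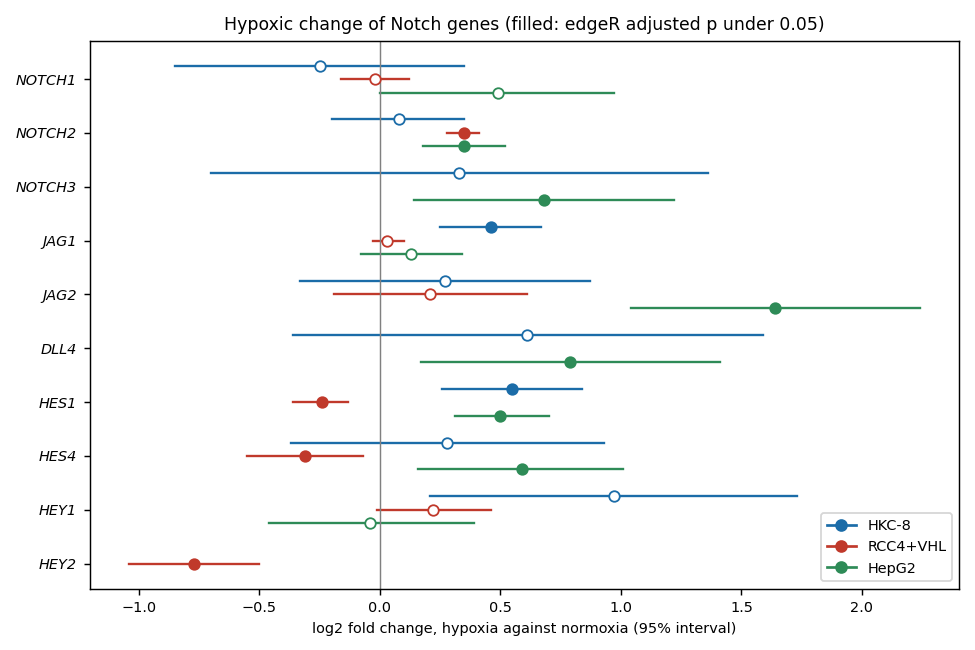
Log2 fold change in hypoxia against normoxia of each Notch gene by cell line (colour), with 95% intervals from edgeR and filled points where the adjusted p was under 0.05; genes without a point were not tested in that line. HES1 and HES4 lie below 0 in RCC4+VHL cells and above 0 in HepG2 cells, and JAG2 in HepG2 cells lies farthest to the right at 1.64.

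The difference between lines was tested itself. HKC-8 and HepG2 cells, which share a labelled exposure, differed in response for 9.30% of 15046 genes and for none of the 10 Notch genes by edgeR, of which JAG2, HEY1, HEY2 and JAG1 had an unadjusted p under 0.05 (0.00869, 0.0183, 0.0247 and 0.0456). HEY2 was near the floor in both lines and was tested in neither alone. For JAG2 the HKC-8 response minus the HepG2 response was -1.38 (95% interval -2.35 to -0.40, adjusted p = 0.0741). This passed under DESeq2 (-1.39, adjusted p = 0.00769), which called 1 of the 10 genes, and with the replicate block (-1.33, adjusted p = 0.00598), and without normoxic HKC-8 replicate 3 (-1.61, adjusted p = 0.00395) or hypoxic replicate 2 (-1.54, adjusted p = 0.036). With the block JAG1 also passed (0.33, adjusted p = 0.0125). For HES1, induced in both lines, the difference was 0.05 (95% interval -0.28 to 0.38).

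Comparisons of the RCC4+VHL response with the others were added after the opposite signs were seen, and they carry the difference in labelled exposure. Of all genes, 15.2% differed from HKC-8 and 22.6% from HepG2 cells. Of the 9 Notch genes tested against HKC-8, 3 differed. HES1 gave a difference of -0.82 (SE 0.11, adjusted p = 0.00051) and JAG1 of -0.45 (SE 0.09, adjusted p = 0.00558), and HEY2 also passed on the 0 to 7 counts of the HKC-8 samples. Against HepG2, 3 of 10 differed, namely HES1 (-0.75, SE 0.11, adjusted p = 4.74e-05), HES4 (-0.91, SE 0.24, adjusted p = 0.00936) and JAG2 (-1.44, SE 0.34, adjusted p = 0.00477). The 10 include NOTCH3, which had no counts in RCC4+VHL cells and so could not be called here. DLL4 was near the floor in RCC4+VHL and HEY2 in HepG2 cells. For NOTCH2 the RCC4+VHL and HepG2 responses differed by -0.01 (95% interval -0.18 to 0.16).

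The wider pathway was read from a list of 68 other genes found in the files, covering ligand endocytosis, sugar transferases, proteases, the nuclear complex, co-repressors, turnover and further HES and HEY genes. In HKC-8 cells 9 of 60 tested were induced and 3 repressed (median log2 fold change 0.05), in RCC4+VHL cells 23 and 8 of 56 (0.08), and in HepG2 cells 18 and 7 of 59 (0.11). The induced shares stood above the shares of all genes induced (11.2%, 25.9% and 19.9%) and the repressed shares below those of all genes repressed, and no test was made of these differences.

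NRARP, a Notch target that limits signalling by binding the intracellular domain, followed the pattern of HES1. It fell in RCC4+VHL cells from 17.6, 20.5 and 17.3 CPM to 7.34, 6.81 and 7.47 CPM, whereas in HepG2 cells it rose from 1.27, 1.14 and 1.34 CPM to 2.40, 1.93 and 2.56 CPM. In HKC-8 cells it rose from 3.72, 3.57 and 4.37 CPM to 6.23, 5.99 and 5.73 CPM. No groups overlapped. The log2 fold changes were -1.35 (SE 0.09, adjusted p = 6.37e-12), 0.88 (SE 0.20, adjusted p = 0.00387) and 0.63 (SE 0.14, adjusted p = 0.0158). The RCC4+VHL response differed from that of HKC-8 by -1.99 (adjusted p = 5.98e-06) and from that of HepG2 by -2.23 (adjusted p = 6.75e-08).

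RBPJ, the DNA-binding partner of all Notch receptors, rose in every line, from 108 ± 3.68 to 150 ± 10.0 CPM in HKC-8 (log2 fold change 0.48, adjusted p = 0.00431), from 71.7 ± 1.47 to 109 ± 6.32 in RCC4+VHL (0.61, adjusted p = 8.11e-11) and from 74.9 ± 6.29 to 120 ± 5.86 in HepG2 cells (0.68, adjusted p = 4.65e-06; SD, n = 3). The co-activator MAML2 rose in RCC4+VHL (1.09, SE 0.13, adjusted p = 3.08e-07) and HepG2 cells (1.43, SE 0.10, adjusted p = 1.09e-07) and gave -0.21 in HKC-8 cells (adjusted p = 0.498), a response that differed from that of HepG2 by -1.65 (adjusted p = 0.000183). In RCC4+VHL cells RBPJ and MAML2 were induced while HES1, HES4, HEY2 and NRARP were repressed. Of the 10 genes of the nuclear complex, 9 were tested in each line, and 1, 5 and 4 were induced and 0, 1 and 1 repressed in HKC-8, RCC4+VHL and HepG2 cells, where 11.2%, 25.9% and 19.9% of all genes were induced.

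**Figure D4:**
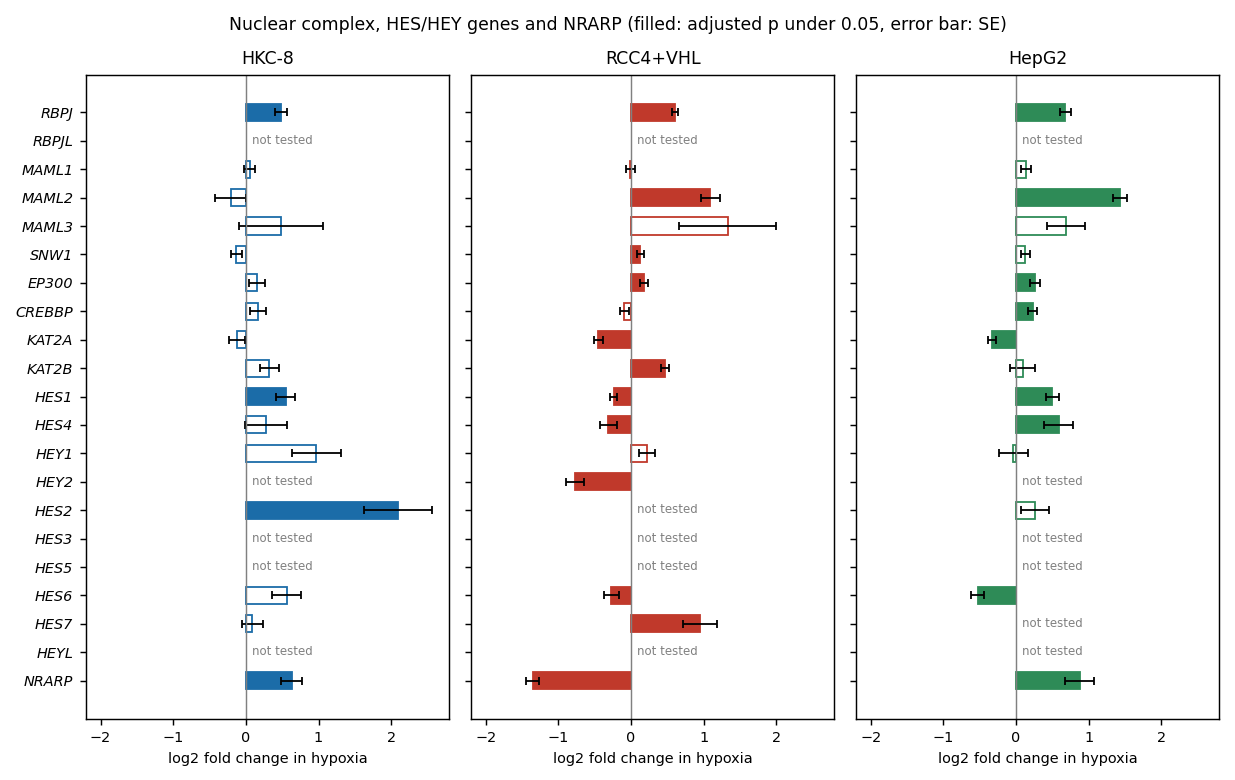
Log2 fold change in hypoxia for the nuclear complex genes, the HES and HEY genes and NRARP in each line, with bars filled where the adjusted p was under 0.05 and error bars for the SE. RBPJ is induced in each line, whereas HES1 and NRARP are induced in HKC-8 and HepG2 cells and repressed in RCC4+VHL cells.

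Of the 9 sugar transferases, which modify the receptors and tune their choice of ligand, 2, 5 and 2 were induced and 0, 1 and 3 repressed in HKC-8, RCC4+VHL and HepG2 cells, beside 11.2%, 25.9% and 19.9% of all genes induced and 9.12%, 24.2% and 19.2% repressed. The Fringe gene MFNG rose in HKC-8 (1.21, SE 0.26, adjusted p = 0.0135) and RCC4+VHL cells (1.95, SE 0.34, adjusted p = 5.48e-05), from 0.579 to 1.34 and from 0.505 to 1.92 CPM in the means, and its relative LFNG rose in HepG2 cells (0.70, SE 0.15, adjusted p = 0.00271). Among the ligands outside the 10, DLK2, a non-canonical ligand, rose in HKC-8 (0.68, adjusted p = 0.0323) and HepG2 cells (0.80, adjusted p = 0.00273) and had 0 counts in RCC4+VHL cells. The ubiquitin ligase gene MIB2, which acts in ligand endocytosis, rose in HKC-8 cells (1.14, adjusted p = 0.0238).

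Of the 9 processing proteases, 0, 5 and 3 were induced and 1, 1 and 1 repressed in the same lines, beside the same shares of all genes. PSEN2, a gamma-secretase subunit, fell by 0.51 on the log2 scale in HKC-8 cells (adjusted p = 0.0394). Among regulators of turnover, DTX4 rose in HKC-8 cells (0.94, adjusted p = 0.0076) and DTX3L fell by 0.51 in HepG2 cells (adjusted p = 0.000358). The co-repressor TLE1, which HES proteins recruit, rose in HepG2 cells (0.77, SE 0.06, adjusted p = 6.02e-07).

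The other HES genes did not move as a block. HES2 rose in HKC-8 cells (2.09, adjusted p = 0.016) on 3 to 21 counts per sample, HES7, a gene of the segmentation clock, rose in RCC4+VHL cells (0.95, adjusted p = 0.00145), and HES6, which opposes HES1, fell by 0.53 in HepG2 cells (adjusted p = 0.000561). HES6 was also repressed in RCC4+VHL cells, from 9.09, 8.38 and 9.57 CPM to 6.93, 7.93 and 7.39 CPM. Its HKC-8 response minus its HepG2 response was 1.09 (edgeR adjusted p = 0.00163). Of the genes named in HKC-8 cells, the calls of HES2, MFNG, MIB2, DLK2 and PSEN2 were lost on leaving out single samples (adjusted p of 0.0569 to 0.149). NRARP and RBPJ were not refitted in HKC-8 cells with samples left out, so the stability of their calls there is not known. In HKC-8 cells as a whole the number of induced genes fell from 1522 to 687 and of repressed genes from 1235 to 326 without normoxic replicate 1, when none of the 10 Notch genes was called, and rose to 2836 and 2919 with the replicate block.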

How the data were processed

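Counts per gene were deposited by the authors as 1 file per sample, made after adaptor trimming (Trim Galore 0.3.3), alignment to GRCh37 (TopHat2 2.0.8b, Bowtie 1.0.0), removal of fragments that did not map uniquely (SAMtools 0.1.19) and counting over UCSC genes (HTSeq 0.5.4p3, a mode that requires the whole read inside 1 gene). Here the counts were tested per line with edgeR 4.0.16 (R 4.3.3; low-count filter, TMM scaling, quasi-likelihood test, Benjamini-Hochberg over all genes, threshold 0.05). Responses of 2 lines were compared by an interaction over 12 samples, and normoxic levels over 9. Printed CPM use TMM factors over all 18 samples, with lengths from GENCODE exons (GRCh37) and promoters from RefSeq (GRCh38.p14), figures drawn in Python. Alternatives were DESeq2 1.42.0, its size factors, other filters, 1 fit of all samples, a replicate block and leaving out each sample. The members, the pathway list and the marker lists were chosen with earlier results of these data known. Other pathway genes were named where the adjusted p passed and the log2 fold change reached 0.5, at most 5 in each direction and line. RBPJ in HKC-8 and HepG2 cells, NRARP in HKC-8 cells and HES6 in RCC4+VHL cells fell outside that rule and were added to complete their pattern over lines. The alternatives were not run for these added values. No 2 replicates agreed within sampling noise (chi-square per degree of freedom of 4.57 or more). Replicate numbers paired the HKC-8 samples: the deviations of same-numbered samples correlated at r = 0.131, 0.526 and 0.494, a pairing read from the data since the labels name no shared batch. In simulated counts with 200 genes changed by a log2 value of 1, the fits recovered 96.0% in HKC-8 (13454 genes), 96.4% in RCC4+VHL (12755) and 93.9% in HepG2 (13526). The interaction of HKC-8 and HepG2 recovered 84.3% (14705 genes). The simulation gave all genes of a fit the same spread and held no pairing of samples. Most called Notch changes were smaller than 1, so these shares do not measure how well such changes were found.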

Additional observations from a re-analysis of the deposited data

Results flagged for a closer look

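The response to hypoxia differed between lines by an interaction test in 6 cases among the 10 Notch genes. The RCC4+VHL response minus the HKC-8 response was -0.82 for HES1, -0.45 for JAG1 and -3.96 for HEY2 on the log2 scale. The HEY2 value rests on 0 to 7 counts per HKC-8 sample and its size is not interpretable. The RCC4+VHL response minus the HepG2 response was -0.75 for HES1, -0.91 for HES4 and -1.44 for JAG2. HES1 moved in opposite directions in RCC4+VHL cells and in both other lines, and HES4 in RCC4+VHL and HepG2 cells, whereas for JAG1 and JAG2 the RCC4+VHL samples overlapped between conditions and the other line was induced. Line and labelled exposure cannot be told apart in these 6 differences.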

How the results depend on the processing

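Of 1401 recomputed log2 values of Notch and named pathway genes, 1305 kept their direction and side of the threshold, 50 no longer passed it, 18 newly passed it and 28 changed sign. The 1401 include uncalled values and the large normoxic differences between lines. The share kept therefore does not measure the stability of the hypoxic calls, which is given by gene above.

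One fit of all 18 samples shares one spread between lines. In it 4 Notch genes were induced in HKC-8 cells (2503 genes induced, 2510 repressed), 1 was repressed in RCC4+VHL cells (1867 genes induced, 1419 repressed), 3 were induced in HepG2 cells, 1 differed between HKC-8 and HepG2 cells (2219 genes) and 1 between RCC4+VHL and HepG2 cells (1886 genes). The RCC4+VHL call of HEY2 was lost in it (adjusted p = 0.0512), as were those of HES4 in RCC4+VHL (0.353) and of NOTCH3 (0.113), DLL4 (0.166) and HES4 (0.0759) in HepG2 cells. Between HKC-8 and HepG2 cells 1 Notch gene differed under DESeq2 and 1 without the low-count filter. The RCC4+VHL differences from HepG2 were also lost for JAG2 (0.0515) and HES4 (0.081) in the fit of all samples.

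With the replicate block, 2836 genes were induced and 2919 repressed in HKC-8 cells, 2 Notch genes and 3019 genes differed between HKC-8 and HepG2 cells, and 4071 genes differed between RCC4+VHL and HKC-8 cells, where NOTCH2 also passed (0.25, adjusted p = 0.0251). Beside HEY1, JAG1 and JAG2 as given above, the block changed no other call of a Notch gene. Deviations of same-numbered samples correlated at r = -0.00922 to 0.033 in RCC4+VHL and 0.0627 to 0.193 in HepG2 cells. In HepG2, as in HKC-8 cells, each normoxic sample correlated best with the hypoxic sample of its own number. The mean r was lower in HepG2 (0.144) than in HKC-8 cells (0.383).

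On leaving out 1 sample at a time, induced Notch genes numbered 0 to 2 in HKC-8 (687 to 1794 genes induced, 326 to 1489 repressed) and 3 to 5 in HepG2 cells, and 0 to 1 differed between these lines (911 to 1890 genes). Sign changes were confined to uncalled values: NOTCH1 in HKC-8 (-0.50 to 0.00) and RCC4+VHL (-0.07 to 0.01), NOTCH2 (-0.03 to 0.17), JAG2 (0.00 to 0.47) and HES4 (-0.12 to 0.49) in HKC-8, and HEY1 in HepG2 cells (-0.24 to 0.26). Between lines they were DLL4 (-0.37 to 0.25) and HES1 (-0.01 to 0.13) for HKC-8 against HepG2, NOTCH1 (-0.04 to 0.47) and JAG2 (-0.28 to 0.19) for RCC4+VHL against HKC-8, NOTCH2 (-0.08 to 0.05), HEY1 (-0.05 to 0.45) and HEY2 (-0.70 to 0.93) for RCC4+VHL against HepG2, and the normoxic HEY1 difference of RCC4+VHL and HepG2 cells (-0.12 to 0.39). NOTCH1 also passed in normoxia between RCC4+VHL and HKC-8 cells without normoxic HKC-8 replicate 1 (0.68, adjusted p = 0.012) and in response between RCC4+VHL and HepG2 cells without normoxic HepG2 replicate 1 (-0.81, adjusted p = 0.00409) or, with all samples, under DESeq2 (-0.53, adjusted p = 0.0371). With the longest transcript as length, JAG2 and HES1 exchanged places in the HKC-8 order. Low counts limit NOTCH3, DLL4, HEY1 and HEY2, and the floor of 3 counts covers counting error only. The cause of these changes was not tested.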

Other observations

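Genes fed by the BMP and TGF-beta pathways, which share the HES and HEY genes with Notch, were read from a list chosen after the values of the Notch genes were seen. ID3, a repressor of helix-loop-helix factors, fell in every line, by 1.27 in HKC-8 (SE 0.26, adjusted p = 0.0118), 0.58 in RCC4+VHL (SE 0.04, adjusted p = 1.02e-11) and 0.26 on the log2 scale in HepG2 cells (SE 0.07, adjusted p = 0.0131). ID1 fell by 0.60 in HKC-8 (adjusted p = 0.0485) and 0.14 in RCC4+VHL cells (adjusted p = 0.00455) but rose by 0.46 in HepG2 cells (adjusted p = 0.000516). ID2 rose in HKC-8 (0.92, adjusted p = 0.000846) and HepG2 cells (0.73, adjusted p = 1.69e-06) and gave -0.11 in RCC4+VHL cells (adjusted p = 0.118). The feedback inhibitor SMAD7 rose in HKC-8 (0.43, adjusted p = 0.0424) and HepG2 cells (0.33, adjusted p = 0.0118), and SMAD6 in HepG2 cells (0.65, adjusted p = 0.000491).

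Among other genes linked to Notch, SOX9, a factor of duct and tubule progenitors, rose in HKC-8 (0.68, SE 0.18, adjusted p = 0.0299) and HepG2 cells (0.77, SE 0.07, adjusted p = 3.22e-06), the latter from 181 ± 19.9 to 309 ± 13.0 CPM (SD, n = 3), and gave -0.11 in RCC4+VHL cells (adjusted p = 0.143). MYC rose in HKC-8 (0.68, adjusted p = 0.0061) and RCC4+VHL cells (0.25, adjusted p = 6.32e-06) and CCND1 rose in HepG2 cells (0.39, adjusted p = 0.000344). These genes were added with the data in view and their differences between lines were not tested. Neither they nor the BMP and TGF-beta genes were refitted with samples left out.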
